A study of Mus musculus with 10 samples.

Results

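Apolipoprotein genes encode the proteins that coat lipoprotein particles, and 10 of them (*Apoa1*, *Apoa2*, *Apoa4*, *Apoa5*, *Apob*, *Apoc1*, *Apoc2*, *Apoc3*, *Apoe* and *Apoh*) were followed in the livers of germ-free (GF) mice given microbiota-derived extracellular vesicles (MEV). They were chosen by gene symbol and made up 10 of the 12148 genes in the count table. RNA from whole liver of wild-type GF C57BL/6 mice was sequenced, 1 library per mouse, from 5 mice that received MEV in PBS (GF+MEV) and 5 that received only PBS (GF+PBS). The doses were oral and repeated over several weeks, and every mouse of both groups lacked a microbiota. MEV came from the caecal contents and stool of control mice. The sources used here do not give the sex or age of the GF mice. In whole liver RNA, fewer cells of a type and less RNA per cell cannot be told apart.

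Lipoproteins carry triglyceride and cholesterol through the blood, and the liver secretes most of them. Apolipoprotein B is the large structural protein of very low density lipoprotein and stays with the particle for its life. Apolipoproteins A-I and A-II build high density lipoprotein, apolipoprotein E is the ligand by which receptors clear remnants, and the C apolipoproteins and A-V move between particles and set how fast lipases empty them. Apolipoprotein A-IV is made mainly in the intestine and also in liver, and apolipoprotein H is a plasma glycoprotein that binds anionic phospholipid.

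Of the 10 genes, 8 had at least 1 promoter window in RefSeq on build GRCm38.p6, and *Apoc1* and *Apoc3* had none. The upstream parts of 5 windows are shown, those of the most abundant members (*Apoe*, *Apoa1*, *Apoa2* and *Apob*) and of *Apoc2*, the only member that passed the test between groups. They run 5′ to 3′ along the gene, from chr7:19699189-19699438 (minus strand) for *Apoe*, chr12:7977427-7977647 (plus) for *Apob*, chr9:46228380-46228579 (plus) for *Apoa1*, chr1:171224804-171225053 (plus) for *Apoa2* and chr7:19677942-19678082 (minus) for *Apoc2*. Capitals mark matches to the searched motifs, and the stretch of *Apoa1* holds none.
Apoe: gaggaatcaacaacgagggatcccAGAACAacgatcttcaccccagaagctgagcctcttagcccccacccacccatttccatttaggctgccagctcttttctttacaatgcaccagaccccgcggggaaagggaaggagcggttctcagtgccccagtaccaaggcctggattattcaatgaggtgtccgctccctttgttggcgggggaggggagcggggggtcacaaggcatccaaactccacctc
Apob: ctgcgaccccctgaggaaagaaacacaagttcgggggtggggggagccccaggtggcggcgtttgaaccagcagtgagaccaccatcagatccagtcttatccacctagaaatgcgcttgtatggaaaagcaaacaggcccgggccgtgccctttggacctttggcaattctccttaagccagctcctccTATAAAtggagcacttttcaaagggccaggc
Apoa1: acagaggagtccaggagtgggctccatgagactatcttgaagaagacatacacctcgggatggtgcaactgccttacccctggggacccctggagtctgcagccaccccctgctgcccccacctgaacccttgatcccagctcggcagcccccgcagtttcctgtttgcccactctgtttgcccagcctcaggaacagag
Apoa2: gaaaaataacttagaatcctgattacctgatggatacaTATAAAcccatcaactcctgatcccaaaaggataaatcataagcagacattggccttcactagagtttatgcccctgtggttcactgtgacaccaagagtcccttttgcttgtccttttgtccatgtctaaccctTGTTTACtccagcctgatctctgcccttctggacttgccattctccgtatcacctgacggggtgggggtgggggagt
Apoc2: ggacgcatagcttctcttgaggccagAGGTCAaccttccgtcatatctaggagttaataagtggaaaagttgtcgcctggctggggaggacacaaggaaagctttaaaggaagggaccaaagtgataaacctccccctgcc

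The motifs were searched on both strands, over 32851 windows that reach 250 bases upstream and into the first bases of the gene. The TATA box (TATAAA) was found in 5 of the 12 windows, which belong to 4 of the 8 matched genes, and in 13.6% of all windows. In *Apob* it starts 60 bases before the RefSeq start on which the window rests, which lies within the gene as GENCODE draws it. The forkhead motif (TGTTTAC) was found in windows of *Apoa2*, *Apoe* and *Apoh* and in 3.65% of all windows. In *Apoa2* it starts 77 bases before the RefSeq start. The nuclear receptor half-site (AGGTCA) was in windows of *Apoa2*, *Apoc2* and *Apoh* and in 16.3% of all. The steroid receptor half-site (AGAACA) was in windows of *Apoa4*, *Apoc2*, *Apoe* and *Apoh* and in 19.0% of all. No window of the 8 matched genes held the HNF4 motif (CAAAGTCCA, 0.475% of all windows), the cAMP response half-site (TGACGT, 7.51%) or the C/EBP motif (TTGCGCAA, 0.183%). The TATA box and forkhead matches of *Apoe* and the AGGTCA match of *Apoa2* lay in other windows of these genes than those printed. A match describes the letters in the window and is not a binding site.

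Libraries held 15746119 to 20523649 counts on genes. Counts were normalised by edgeR's TMM method and are given as CPM, a library's counts scaled to a common size. Over all genes, edgeR's quasi-likelihood test with Benjamini-Hochberg adjustment at 0.05 called 500 of 12147 higher in GF+MEV (4.12%) and 428 lower (3.52%), together 7.64%. With upper-quartile normalization the split was 428 higher and 612 lower. GF+MEV replicate 2 stood apart, with a TMM factor of 0.890 against 0.978 to 1.04 in the other 9 libraries. Its chi-square per gene against each other GF+MEV liver was 135 to 176, beside 8.22 to 21.4 for pairs of those others. Within GF+PBS, replicates 1 and 3 were the most alike pair (chi-square per gene 6.36) and replicates 4 and 5 the next (7.20), against 8.57 to 25.0 for the other pairs, and no pair agreed within sampling noise. The labelled tissue carried its defining markers, since 8 hepatocyte genes summed to between 103444 and 121022 CPM in every library. Of 5 enterocyte markers only *Fabp2*, which liver also expresses, was analysed here, and since the count table was filtered this does not show that the others had no counts.

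The members took 5.17 ± 0.212% of all counts in GF+MEV livers and 5.35 ± 0.282% in GF+PBS livers (SD, n = 5 each), and the ranges overlapped. *Apoe* alone took 2.46 ± 0.117% and 2.62 ± 0.151% (SD, n = 5 each). By mean CPM, *Apoe* ranked 2 of all tested genes, *Apoa1* 5, *Apoa2* 13 and *Apob* 25. *Apoc1*, *Apoh*, *Apoc3* and *Apoa5* ranked 49, 75, 101 and 137. *Apoa4* and *Apoc2* stood far down, at ranks 8108 and 11219. In counts, the family thus ran from rank 2 to rank 11219 of 12147 tested genes. Exons of *Apoa4* and *Apoc2* overlap those of other genes, so their low ranks need not give the level of the transcripts.

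Between genes, levels are compared per kilobase of merged exon. *Apoa2* (11903 ± 1211 CPM per kb, SD over 10 livers) and *Apoe* (11886 ± 696) were at the top and did not differ beyond their spread, with *Apoa2* above in 6 of 10 livers. With the longest transcript as the length, *Apoe* came first. *Apoa1* followed at 8421 ± 1035 CPM per kb, *Apoc1* at 3207 ± 278, *Apoc3* at 1240.1 ± 83.9 and *Apoh* at 1081 ± 70.3. The ranges of *Apoc3* and *Apoh* overlapped, although *Apoc3* was above in 10 of 10 livers. *Apoa5* lay at 373 ± 30.2 and *Apob* at 294 ± 44.3 CPM per kb, with *Apoa5* above in 9 of 10 livers. *Apob* has by far the longest exons, 13934 bases, so its place in this order was much lower than by CPM. *Apoa4* (4.40 ± 1.27 CPM per kb) and *Apoc2* (2.01 ± 0.832) were lowest and their ranges overlapped. Both values divide by all exonic bases, also those that overlap other genes.

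The question put to these genes was whether MEV changed their transcript levels. Of the 10, 0 were called higher (4.12% of all genes) and 1 was called lower (3.52% of all genes), *Apoc2*. In edgeR, 3 had an unadjusted p under 0.05 (*Apoc2*, *Apob* and *Apoa1*), and DESeq2 and limma-voom also called *Apoc2* alone. The median log2 fold change of the members was -0.018, beside -0.0037 over all genes, and their median absolute log2 fold change was 0.10, beside 0.12. The 8 members above 100 CPM had log2 fold changes from -0.14 to 0.25, and no 95% interval among them reached below 0.793-fold or above 1.44-fold. Intervals come from the spread of log2 CPM between livers, with 8 degrees of freedom.

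**Figure D1:**
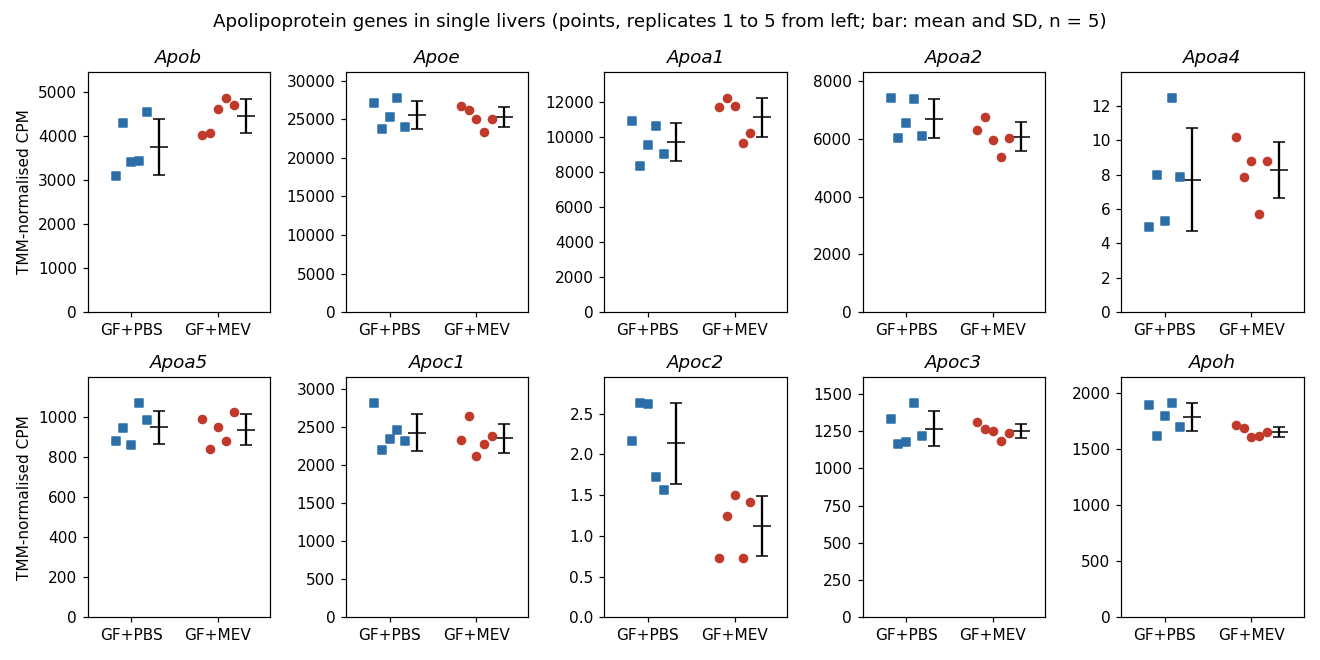
TMM-normalised CPM (vertical axes, from 0) of the 10 apolipoprotein genes in each liver, with GF+PBS as blue squares and GF+MEV as red circles; black bars give mean and SD (n = 5). The groups overlap in each panel except *Apoc2*, whose GF+MEV livers lie between 0.730 and 1.50 CPM and whose GF+PBS livers lie between 1.56 and 2.63 CPM.

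*Apob* (ENSMUSG00000020609, chr12:7977648-8016835), the structural protein of very low density lipoprotein, measured 4014, 4064, 4614, 4864 and 4696 CPM in GF+MEV livers 1 to 5. In GF+PBS livers 1 to 5 it measured 3086, 4294, 3393, 3422 and 4533 CPM. GF+PBS replicates 1, 3 and 4 were the 3 lowest of all livers, while replicates 2 and 5 lay within the GF+MEV range. The means were 4451 ± 386 and 3746 ± 629.7 CPM (SD, n = 5 each). The log2 fold change was 0.25 (SE 0.12, 95% interval -0.030 to 0.53), which did not pass the test (edgeR adjusted p = 0.172). Against GF+PBS replicates 1 and 3 alone it was 0.45 (edgeR adjusted p = 0.0147), and against replicates 2, 4 and 5 alone it was 0.12 (adjusted p = 0.586), in fits chosen after seeing the data.

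*Apoa1* (ENSMUSG00000032083, chr9:46228580-46230466), the main protein of high density lipoprotein and the activator of LCAT, measured 11714, 12245, 11757, 9659 and 10252 CPM in GF+MEV livers 1 to 5. In GF+PBS livers 1 to 5 it measured 10937, 8361, 9518, 10625 and 9019.5 CPM. GF+MEV replicates 1, 2 and 3 were the 3 highest of all livers, and the other 2 fell among the GF+PBS values. The log2 fold change was 0.20 (SE 0.098, 95% interval -0.026 to 0.42, edgeR adjusted p = 0.195). *Apoa2* (ENSMUSG00000005681, chr1:171225054-171226379), the second protein of that particle, measured 6315, 6746, 5964, 5362 and 6028 CPM in GF+MEV and 7434, 6031, 6544, 7383 and 6113 CPM in GF+PBS livers. GF+PBS replicates 1 and 4 were highest and GF+MEV replicate 4 lowest, with the other 7 livers mixed. Its log2 fold change was -0.14 (SE 0.085, 95% interval -0.33 to 0.055, edgeR adjusted p = 0.336).

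*Apoe* (ENSMUSG00000002985, chr7:19696109-19699188), the receptor ligand of remnant particles, measured 26702, 26144, 25022, 23392 and 25038 CPM in GF+MEV livers 1 to 5. In GF+PBS livers 1 to 5 it measured 27089.7, 23769, 25229, 27793 and 23947 CPM. The 2 highest livers, GF+PBS replicates 4 and 1, and the next to lowest, GF+PBS replicate 2, were all of the PBS group, so GF+MEV lay almost wholly inside the GF+PBS range. The highest liver was 1.19 times the lowest. The log2 fold change was -0.017 (SE 0.056), and its 95% interval ran from 0.903-fold to 1.08-fold (edgeR adjusted p = 0.914). *Apoe* is also made by macrophages, and none of 11 macrophage and Kupffer cell markers passed the test (summed 299.9 to 551 CPM in GF+MEV and 341 to 482 CPM in GF+PBS).

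*Apoc2* (ENSMUSG00000002992, chr7:19671579-19677941) encodes the cofactor that lipoprotein lipase needs. Its raw counts were 12, 18, 31, 13 and 22 in GF+MEV livers 1 to 5 and 39, 47, 44, 34 and 26 in GF+PBS livers. As CPM these were 0.732, 1.24, 1.50, 0.730 and 1.41 in GF+MEV and 2.166, 2.63, 2.62, 1.72 and 1.56 in GF+PBS. Every GF+MEV liver lay below every GF+PBS liver, a separation seen in 7.39% of all genes, and the nearest pair, GF+MEV replicate 3 and GF+PBS replicate 5, was barely apart. The log2 fold change was -0.92 (SE 0.25, 95% interval -1.50 to -0.34), or 0.529-fold (edgeR adjusted p = 0.0341). The exact two-sided permutation test over all labelings gave the smallest p it can reach, p = 0.00794 (n = 5 each). That p follows from the separation of the groups and adds nothing to it. The call was lost without any 1 of 6 livers, GF+MEV replicate 1, 2 or 4 or GF+PBS replicate 1, 2 or 3, with edgeR adjusted p from 0.0558 to 0.0868. It was also lost when the 2 alike GF+PBS pairs were each added up to a single library (edgeR adjusted p = 0.0757), and over all 22 alternatives the adjusted p ran from 0.0121 to 0.140.

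The level of *Apoc2* is uncertain in another way. Of its 813 exonic bases, 646 (79.5%) are also exonic in *Gm44805* on the same strand, which leaves 167 bases of its own. How reads on shared bases were counted is not given in the sources used here, and *Gm44805* was not analysed here. The count therefore need not stand for the whole transcript. *Gm44805* runs across *Apoc2* and the next gene upstream on the same strand, *Apoc4*. *Apoc4* was at 124 ± 18.9 CPM in GF+MEV and 123 ± 17.9 CPM in GF+PBS (SD, n = 5 each), and differed by 0.019 on the log2 scale (edgeR adjusted p = 0.948).

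Of the other members that act on lipolysis, none passed the test. *Apoc3* (ENSMUSG00000032081, chr9:46232933-46235636), which slows lipolysis and remnant uptake, measured 1314, 1264, 1253, 1181 and 1235 CPM in GF+MEV and 1332, 1163, 1180.3, 1439.7 and 1215 CPM in GF+PBS livers. GF+PBS replicates 4 and 1 were again highest, and the groups overlapped. The log2 fold change was -0.019 (95% interval -0.17 to 0.13, edgeR adjusted p = 0.914). *Apoc1* (ENSMUSG00000040564, chr7:19689481-19692660), an inhibitor of receptor uptake, ranged from 2123 to 2642 CPM (median 2328) in GF+MEV and from 2194 to 2813 CPM (median 2333) in GF+PBS. Its log2 fold change was -0.046 (95% interval -0.23 to 0.14, edgeR adjusted p = 0.796). *Apoa5* (ENSMUSG00000032079, chr9:46268633-46271919), which promotes lipolysis, ranged from 838 to 1023 CPM (median 947) and from 859.7 to 1068 CPM (median 943), with a log2 fold change of -0.017 (95% interval -0.20 to 0.16, edgeR adjusted p = 0.933). Of the exonic bases of *Apoa5*, 524 of 2522 lie opposite those of *Gm47544*.

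*Apoa4* (ENSMUSG00000032080, chr9:46240696-46243459) and *Apoh* (ENSMUSG00000000049, chr11:108343354-108414396) complete the family. *Apoa4* measured 10.2, 7.87, 8.79, 5.73 and 8.80 CPM in GF+MEV and 4.94, 7.96, 5.30, 12.5 and 7.87 CPM in GF+PBS livers. GF+PBS held both the highest liver, replicate 4, and the 2 lowest, replicates 1 and 3. The log2 fold change of 0.095 had the widest interval of the members not called (95% interval -0.54 to 0.73, edgeR adjusted p = 0.863), which holds changes of 0.689-fold and of 1.65-fold. *Apoa4* exons overlap those of *Gm47528* and *Gm10680* on the other strand, over 634 and 632 of 1815 bases. *Apoh* measured 1716, 1687, 1611, 1623 and 1655 CPM in GF+MEV and 1901, 1623, 1796, 1916 and 1703 CPM in GF+PBS livers. GF+PBS replicates 1, 3 and 4 were above every GF+MEV liver, but the groups overlapped. Its log2 fold change was -0.11 (95% interval -0.22 to 0.0046, edgeR adjusted p = 0.327).

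**Figure D2:**
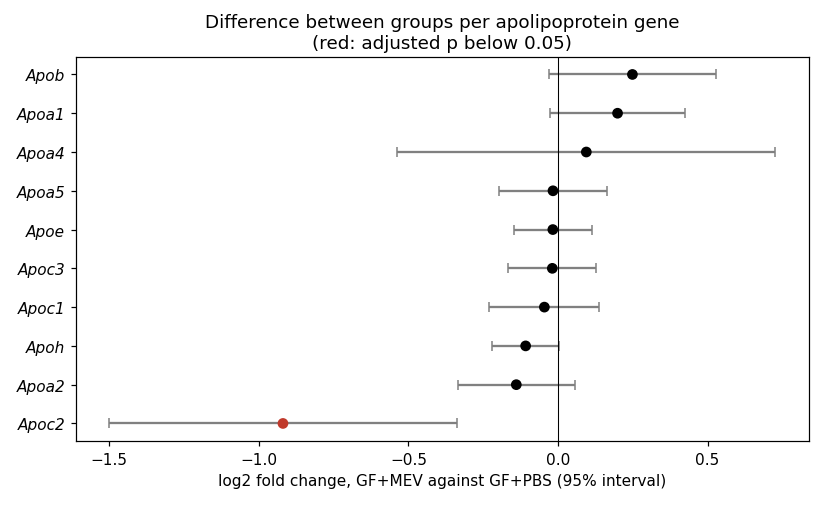
Log2 fold change of each apolipoprotein gene, GF+MEV against GF+PBS (horizontal axis), with 95% intervals over 5 livers per group; red marks an adjusted p below 0.05. The interval of *Apoc2* runs from -1.50 to -0.34, while those of the other 9 genes hold 0 and are narrowest for *Apoh* and *Apoe*.

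Most members followed, between livers, an order that also sorted transcripts by length. For each liver, a length index was taken as the median log2 deviation of 1914 genes with transcripts of at least 5000 bases minus that of 896 genes with transcripts of at most 1500 bases, the members left out. The index was -0.037, -0.048, 0.15, 0.21 and 0.078 in GF+MEV livers 1 to 5 and -0.36, 0.12, -0.073, -0.17 and 0.11 in GF+PBS livers 1 to 5. GF+PBS replicates 1 and 4 were lowest and GF+MEV replicate 4 highest, and the groups overlapped (0.071 ± 0.11 and -0.074 ± 0.20, SD, n = 5 each). The 5 livers with the highest index were also the 5 with the most *Apob*, whose transcript is 13934 bases long. The same 5 livers had the least *Apoa2* and the least *Apoe*, with transcripts of 518 and 1408 bases. Of these 5 livers, 4 were also among the 5 lowest for *Apoa1*, *Apoc1*, *Apoc3* and *Apoh*. *Apoa4*, *Apoa5* and *Apoc2* did not follow this order, with 2, 2 and 3 of these livers among their 5 lowest. The transcripts of *Apoa4* and *Apoa5*, of 1815 and 2515 bases, lie between the lengths used for the index. That of *Apoc2* has 727 bases. The order of the livers was noticed in the data, and what set the index was not tested.

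**Figure D3:**
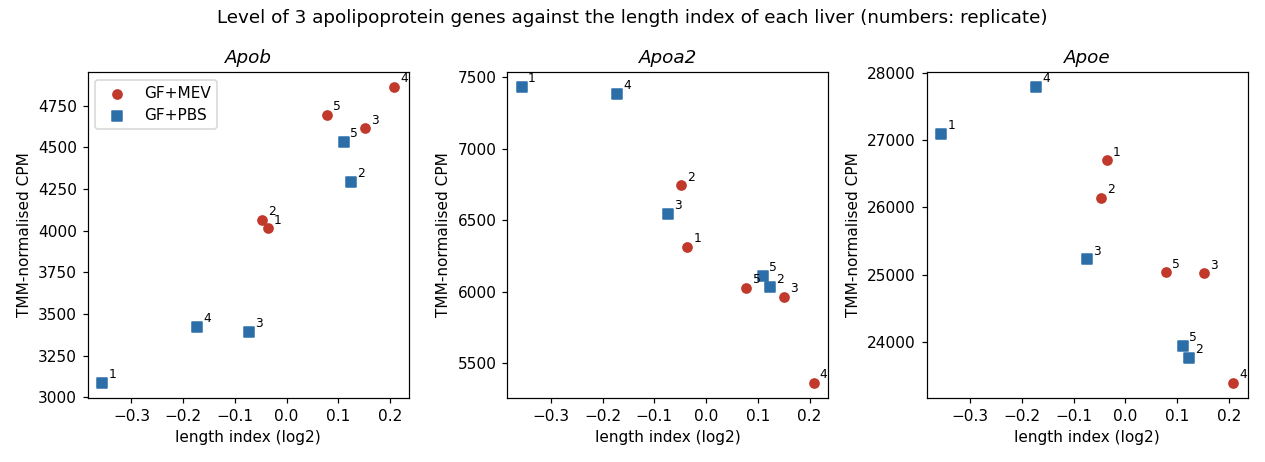
CPM of *Apob*, *Apoa2* and *Apoe* (vertical axes, not from 0) against the length index of each liver (horizontal axis, log2), with GF+MEV as red circles and GF+PBS as blue squares numbered by replicate. The 5 livers with an index above 0 have the highest *Apob* and the lowest *Apoa2* and *Apoe*, whichever group they belong to.

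With the index as a covariate, a fit chosen after seeing the data, the difference in *Apob* went from 0.25 to 0.100 on the log2 scale (edgeR adjusted p = 0.361). That of *Apoa2* went from -0.14 to -0.028 (edgeR adjusted p = 0.809). That of *Apoa1* went from 0.20 to 0.32 and then passed the test (edgeR adjusted p = 0.00931). That of *Apoc2* went from -0.92 to -0.94 and no longer passed (edgeR adjusted p = 0.0671).

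The tested gene whose profile over the 10 livers was most like that of each member was found by the root mean square distance between centred log2 CPM values, among 11833 genes. For *Apoe* it was *Cope*, at 0.0247, and for *Apoh* it was *Ddrgk1*, at 0.0280. For *Apoc3* it was *Atp5d*, at 0.0291, and *Apoe* was at rank 5. *Apoc1* was nearest to *Swi5* (0.0369), *Apoa2* to *Ttr* (0.0407), the gene of the thyroid hormone carrier transthyretin, and *Apoa5* to *Rdh16* (0.0522), a retinol dehydrogenase. *Apob* was nearest to *Insr* (0.0581), the insulin receptor, and *Apoa1* to *Rhbdf1* (0.0586). The sparsely counted *Apoa4* and *Apoc2* lay further from their nearest genes, *Gys2* (0.176) and *Id1* (0.178). The distance is not scaled to how much a gene varies, and both varied most of the members between livers. Their own root mean square spreads were 0.395 and 0.571, beside 0.080 for *Apoe*, so these distances do not show that their profiles were less matched. All genes in this measure share the same libraries and depths, and the distances carry no test.

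The counts of 5 lists of pathway genes stand beside the 4.12% of all genes called higher and 3.52% called lower, and the lists were not tested against each other. Of 8 other apolipoprotein genes tested, 0 were called higher and 1 lower, *Apol7a*, which had 122 ± 4.48 CPM in GF+MEV and 158 ± 18.2 CPM in GF+PBS (SD, n = 5 each; log2 fold change -0.37, edgeR adjusted p = 0.0063). It belongs to a family of near-identical copies, so its count is uncertain. Of 15 genes of lipoprotein assembly and secretion, 0 were called higher and 1 lower, *Smlr1*, at 31.9 ± 2.19 against 38.1 ± 2.29 CPM (log2 fold change -0.26, edgeR adjusted p = 0.029). *Mttp*, which loads lipid onto apolipoprotein B, differed by 0.13 on the log2 scale (95% interval 0.023 to 0.23) and did not pass (edgeR adjusted p = 0.203). The call of *Smlr1* was lost with a replicate block (edgeR adjusted p = 0.058) and without GF+MEV replicate 1, 3 or 4 or GF+PBS replicate 1, 3 or 5 (edgeR adjusted p from 0.051 to 0.075).

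Among 14 reported lipases, their regulators and remodelling proteins, 2 were called higher and 1 lower (21.4%, beside 7.64% of all genes). *Angptl4*, an inhibitor of lipoprotein lipase, was at 184 ± 15.6 CPM in GF+MEV and 66.5 ± 10.6 CPM in GF+PBS (log2 fold change 1.47, edgeR adjusted p = 2.8e-07). *Angptl8*, whose product regulates the same enzyme, was at 15.1 ± 4.10 and 37.3 ± 7.91 CPM (log2 fold change -1.32, edgeR adjusted p = 0.00034). *Lipg*, the endothelial lipase that acts on high density lipoprotein, was at 45.6 ± 7.18 and 21.9 ± 7.10 CPM (log2 fold change 1.06, edgeR adjusted p = 0.0019). The 3 genes thus moved in both directions, and the groups did not overlap in any of them (7.39% of all genes were without overlap). *Lpl* itself differed by 0.26 (edgeR adjusted p = 0.087) and did not pass.

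Of 8 apolipoprotein receptors and their regulators reported here, 0 were called in either direction by edgeR, DESeq2 or limma-voom, and 1 had an unadjusted p under 0.05 in edgeR. That was *Vldlr*, a receptor for triglyceride-rich particles, at 3.91 ± 1.02 CPM in GF+MEV and 6.27 ± 2.34 CPM in GF+PBS (SD, n = 5 each). Its groups overlapped, with a log2 fold change of -0.68 (95% interval -1.37 to 0.0034, edgeR adjusted p = 0.113). *Lrp1*, a large remnant receptor of hepatocytes, differed by 0.17 (95% interval -0.16 to 0.51, edgeR adjusted p = 0.447). Without GF+PBS replicate 3, *Vldlr* was called lower.

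The transcription factors known to act on apolipoprotein genes included 9 called genes of 25 (36%, beside 7.64% of all genes), with 4 higher and 5 lower. The list was drawn up with results of these data known, and its share was not tested against other genes. *Cebpb* (log2 fold change 2.004), the coactivator *Ppargc1a* (1.21), *Foxo1* (0.79) and *Hnf4a* (0.45) were higher in GF+MEV. *Hnf4a*, which drives many hepatocyte genes including those of the apolipoproteins, was at 719 ± 39.3 CPM in GF+MEV and 525.9 ± 36.8 CPM in GF+PBS (edgeR adjusted p = 0.00036). *Foxa2* (log2 fold change -1.49), *Foxa1* (-0.66), *Nr2f2* (-0.48), *Nr1d1* (-0.48) and *Cebpa* (-0.29) were lower. *Foxa2* was at 13.5 ± 1.88 CPM in GF+MEV and 37.9 ± 5.34 CPM in GF+PBS (edgeR adjusted p = 9.1e-07). The median log2 fold change of the list was -0.045, beside a median absolute value of 0.22, so the list had no common direction. *Cebpa*, *Cebpb*, *Foxo1*, *Nr1d1* and *Nr2f2* each share exonic bases with an opposite-strand gene.

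**Figure D4:**
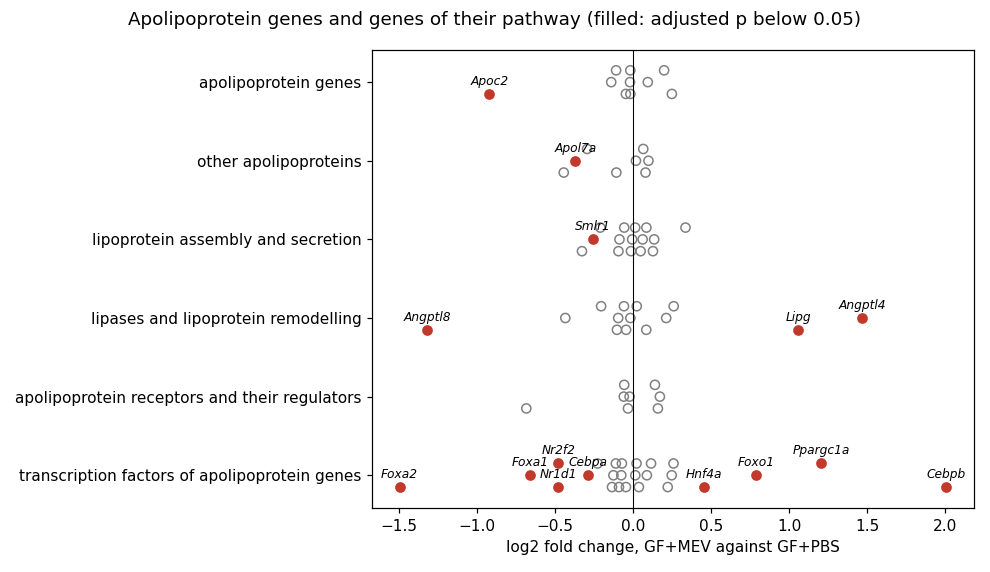
Log2 fold change, GF+MEV against GF+PBS (horizontal axis), of each gene reported in 6 lists (vertical axis; height within a list has no meaning), filled and named where the adjusted p was below 0.05. The apolipoprotein genes cluster near 0 apart from *Apoc2*, while 9 of 25 transcription factors are filled, from -1.49 for *Foxa2* to 2.004 for *Cebpb*.

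Some markers of other liver cells were called, beside 7.64% of all genes. Of 3 cholangiocyte markers, 1 was called higher (*Krt19*), and the list summed to 28.1 to 79.3 CPM in GF+MEV and 23.2 to 29.7 CPM in GF+PBS. *Sox9* went the other way (log2 fold change -0.98, edgeR adjusted p = 0.103), and *Spp1* was at 0.52 (edgeR adjusted p = 0.133). GF+MEV replicate 2 was highest of all livers for *Spp1* (61.1 CPM) and *Krt19* (16.8 CPM). Of 4 lymphocyte markers, 2 were called lower (*Cd79a* and *Cd79b*), with sums of 3.86 to 4.88 and 6.61 to 8.44 CPM. Of 6 endothelial markers, *Lyve1* was called higher and *Clec4g* lower, and 0 of 7 stellate cell markers were called in edgeR (1 at an unadjusted p under 0.05). Of 8 hepatocyte markers, *Cps1* was called higher (log2 fold change 0.38, edgeR adjusted p = 0.0414). The part of these markers in the level of *Apoc2* was not tested.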

How the data were processed

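Raw counts per Ensembl gene were deposited by the authors without normalization. They had aligned reads to GRCm38 with STAR (version 2.7.3a in the submitters' processing notes, with bcl2fastq 2.17 before it), counted them with HTSeq and filtered genes on low counts. The library kit does not mark strand, so reads of overlapping genes on opposite strands cannot be told apart. In the table, 5 columns that match no described sample were left aside. Symbols, positions and exon lengths came from GENCODE M21, and 10 identifiers had no symbol. Promoter windows came from RefSeq, whose build is named beside them.

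The 10 libraries held 15746119 to 20523649 counts, of which *Apoc2* took the fewest among the members (12 to 47 per library). Genes with at least 20 counts over the libraries were tested with edgeR 4.0.16 in R 4.3.3: TMM, a quasi-likelihood fit on group and Benjamini-Hochberg adjustment over all 12147 genes, threshold 0.05. Standard errors and 95% intervals were taken on log2 CPM (prior count 2). An exact permutation test, two-sided, ran over all labelings for each member and list gene, and its p is printed for *Apoc2* only. The labels number the mice, and p-values weigh the difference between groups against the spread between mice.

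The members and lists were chosen with earlier results of these data known. All members were named, and so were list genes and genes within 100 kb that passed the test, and the gene nearest to each member in profile. *Mttp*, *Lpl*, *Lrp1*, *Apoc4* and the markers were named for their role after their values were seen. Some genes of these lists are not reported here and were left out of the list counts after the fit. The fits were tested on simulated data. Alternatives were DESeq2 1.42.0, limma 3.58.1 (voom), RLE and upper-quartile scaling, normalization without the members, other filters, a replicate block, summed GF+PBS replicates and each liver left out. Profile distances used genes of at least 1 CPM on average.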

Additional observations from a re-analysis of the deposited data

Results flagged for a closer look

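GF+MEV replicate 2 had a TMM factor of 0.890, while its group otherwise ran from 0.978 to 1.01. The gap was 0.734 of the group's range, above Dixon's 95% critical ratio of 0.71 for 5 livers. Without this liver no member passed the test (*Apoc2*, edgeR adjusted p = 0.0558). It was the 1 distant value among 72 groups checked (the CPM of each member, called list gene or other gene discussed except the markers and profile neighbours, and 4 library measures), and chance alone would give about 3.6. GF+MEV replicate 2 also differed from its group over all genes. Its chi-square per gene against the other GF+MEV livers was 135 to 176, beside 8.22 to 21.4 for pairs of those others.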

How the results depend on the processing

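Over 22 alternatives, *Apoa1*, *Apob*, *Apoa2*, *Apoh* and *Apoc2* kept their direction, and *Angptl4*, *Angptl8*, *Lipg* and 8 of the 9 called transcription factors kept direction and call (*Cebpa* lost its call in 2). *Apoc2* passed in 12, with log2 fold changes from -1.08 to -0.79. Members called lower ranged from 0 to 1 and members called higher stayed at 0 without each liver in turn. Members called lower were 0 with GF+PBS replicates 1 and 3, and 4 and 5, summed, with the length index, and against GF+PBS replicates 1 and 3 or 2, 4 and 5 alone (the last 3 chosen after seeing the data). Members called higher were 1 with the index (*Apoa1*) and 1 against replicates 1 and 3 (*Apob*). Genes called lower were 209 with summed replicates.

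Other apolipoproteins called lower were 2 with DESeq2, the replicate block or the index, 3 with upper-quartile scaling or against replicates 2, 4 and 5, and 0 against replicates 1 and 3 (1 to 2 without each liver). Assembly genes called lower were 2 with DESeq2, upper-quartile scaling or against replicates 1 and 3, and 0 with the replicate block, summed replicates, the index or against replicates 2, 4 and 5 (0 to 2 without each liver, and 0 to 1 called higher). Receptor genes called lower were 1 against replicates 2, 4 and 5 (0 to 1 without each liver). Lipase genes called lower were 2 against replicates 1 and 3. The cause of these changes was not tested.

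Members near 0 changed sign. Without each liver in turn, log2 fold changes ran from -0.031 to 0.34 for *Apoa4*, from -0.050 to 0.031 for *Apoa5*, from -0.090 to 0.014 for *Apoc1*, from -0.049 to 0.031 for *Apoc3* and from -0.043 to 0.014 for *Apoe*. With summed replicates they were 0.0056 for *Apoc3* and 0.0055 for *Apoe*. With the index they were 0.052 for *Apoc1*, 0.047 for *Apoc3* and 0.055 for *Apoe*. Against replicates 2, 4 and 5 they were -0.20 for *Apoa4*, 0.015 for *Apoc1* and 0.0051 for *Apoe*, and against replicates 1 and 3 0.10 for *Apoa5*, where *Apoa4* was at 0.69 (edgeR adjusted p = 0.0596). The longest transcript put *Apoe* first and *Apoa2* second. The labels do not state that same-numbered livers were paired. Deviations of same-numbered livers correlated from -0.15 to 0.14 over the 500 most variable genes, which cannot decide whether the mice were paired. With the replicate block *Apoc2* was at -0.94 (edgeR adjusted p = 0.0386), and 450 genes were called higher and 342 lower.

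*Apoc2* had the fewest counts of the members, and small changes in it were not detectable at this depth.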

Other observations

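Most members lie in clusters. *Apoa1*, *Apoc3*, *Apoa4* and *Apoa5* share 43.3 kb of chromosome 9, and *Apoe*, *Apoc1* and *Apoc2* share 27.6 kb of chromosome 7. Within 100 kb of a member lay 26 other tested genes, of which 2 were called higher in GF+MEV and 0 lower in edgeR (7.69%, beside 7.64% of all genes), with a median log2 fold change of -0.014. *Sik3*, which encodes a salt-inducible kinase and lies beside *Apoa1*, was at 74.4 ± 7.14 CPM in GF+MEV and 59.1 ± 3.57 CPM in GF+PBS (SD, n = 5 each; log2 fold change 0.33, edgeR adjusted p = 0.0104). *Nectin2*, an adhesion molecule near *Apoe*, was at 80.5 ± 7.70 and 63.4 ± 1.07 CPM (log2 fold change 0.34, edgeR adjusted p = 0.0047). *Tomm40*, which lies between *Apoe* and *Nectin2*, differed by 0.024 on the log2 scale (edgeR adjusted p = 0.896).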
